A study of Mus musculus with 15 samples.

Results

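GABA-A receptors are assembled from subunits, and 7 of the subunit genes were followed here across the cells of the mouse prefrontal cortex (PFC): Gabra2, Gabra3, Gabra4 and Gabra5 for α subunits, Gabrb1 and Gabrb2 for β subunits, and Gabrd for the δ subunit. They were taken by symbol from a given list, whose rule sets no threshold on a measured value, and all 7 were found among the 26145 genes listed. The list is not the whole family: 12 other subunit genes of GABA-A receptors are listed in the same files. At P60 the 7 genes were highest in different cells. Among excitatory clusters Gabrd and Gabra2 peaked in those with high Cux2 and Gabra5 in others. As class means, Gabrb2 was highest in inhibitory neurons and Gabrb1 in astrocytes. Not every inhibitory cluster was high in Gabrb2: its mean in the Sst cluster Inhib_2 was below that of excitatory neurons. To be called different, a gene had to pass both a cutoff on the p-value adjusted over all genes tested and a fold of 1.5. Between P21 and P60, with 3 P21 libraries, none of the 7 was called in excitatory neurons in the main fit, against 18.0% of all genes tested. Gabrb2 and Gabra5 fell and Gabra3 rose there by less than 1.5-fold each. Each passed the adjusted p, as did 38.7% of all genes tested, but not the fold. The rises of Gabra2 and Gabrd in excitatory neurons passed the adjusted p in some settings only. The rise of Gabra5 in the summed inhibitory neurons was called in some settings only, and not without cluster Inhib_7. The share of Inhib_7 in inhibitory cells was 8.09% at P21 and 36.5% in the saline P60 libraries. With P60 cluster levels at P21 shares, Gabra5 came out below its P21 value. The parts of level and share were not tested. No difference between cocaine and saline was called for any of the 7 genes, with 2 libraries per treatment and time point. Few genes of any kind were called: in the whole classes 0% at maintenance and at 48 h. At 15 days it was 0.706% in excitatory and 0.815% in inhibitory neurons. In inhibitory neurons the intervals of 2 standard errors reached from -1.75 to 2.34 on the log2 scale.

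The GABA-A receptor is a chloride channel opened by GABA, the main inhibitory transmitter of the cortex, and its subunits decide where it sits and how it responds. Receptors with a γ subunit gather at synapses through the scaffold protein gephyrin, and the α subunit sets their speed and their response to benzodiazepines, to which receptors with the α4 subunit are insensitive. Receptors with the δ subunit, which pairs with α4 in the forebrain, lie outside synapses, as many receptors with α5 do, and carry a tonic current at low GABA. The β subunits form part of the GABA binding site and are needed for the receptor to reach the cell surface.

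Single cells of the PFC of male C57BL/6N mice were captured in droplets and sequenced in 15 libraries. Of these, 12 came from adult mice (P60 in the study, 8 to 10 weeks in the labels) after intravenous self-administration of cocaine or saline, with 2 libraries for each treatment at maintenance, at 48 h and at 15 days of withdrawal, and 3 came from P21 mice (3 weeks) without self-administration. In the paper catheters were implanted at P60, before self-administration and withdrawal. P60 therefore names the group here, not the exact age at collection, which can differ between time points. An adult library pooled 2 mice. The P21 libraries came from 4 mice in all, so that with pools of 2 there can be no 3 separate pools, and how the mice were divided over the libraries is not given in the sources used here. P-values therefore cover the spread between libraries only, and the age comparison is also given with P21 libraries 2 and 3, the closest pair, summed as 1. Age and the self-administration procedure cannot be told apart, since every P60 library had it and no P21 library did.

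The retained cells of a library held 8375172 to 42892922 unique molecular identifiers (UMIs, each a counted mRNA molecule), with medians of 3426 to 11334.5 per cell. The authors' classes were checked against defining markers: at P60 Slc17a7, the vesicular glutamate transporter, stood at 410.3 CPM (UMIs per 1000000 of the sum) in excitatory neurons, against 26.7 CPM in inhibitory ones, and Gad2, a GABA-synthesizing enzyme, at 0.739 and 1561 CPM. The tissue tag of the labels names the nucleus accumbens while titles and source name the PFC. No 2 libraries of a group agreed within sampling noise, P21 library 1 stood apart from P21 libraries 2 and 3 (chi-square per degree of freedom 44.4 and 39.4, against 3.67 between the other two), and no 2 libraries shared more than 1.00% of the cell barcodes of the smaller one.

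In the NCBIM37 build, the same as the files' mm9, 3 members lie close together on chromosome 5: Gabra2 at chr5:71352296-71487088 and Gabra4 at chr5:71960973-72049547 on the minus strand, and Gabrb1 at chr5:72091171-72529628 on the plus strand, with 41.6 kb between Gabra4 and Gabrb1. This gap holds for the NCBIM37 gene models. In RefSeq (GRCm38.p6) the 250 bases before a listed Gabrb1 start end at chr5:71657920, a position inside the 5′ end of Gabra4. Gabra3 lies at chrX:69678020-69902187 (minus), Gabra5 at chr7:64663060-64765379 (minus), Gabrb2 at chr11:42233259-42446092 (plus) and Gabrd at chr4:154759089-154772221 (minus). Gm9962, a gene annotated as protein coding on the opposite strand, overlaps Gabra5 up to its 3′ end, and the strand setting of the counting is not given in the sources used here, so reads of the pair may not be told apart. The 250 bases before the start of Gabra2, Gabra4 and Gabra5 are shown, since the first pair and Gabra5 took opposite sides of the excitatory clusters. They come from RefSeq (GRCm38.p6, minus strand, written 5′ to 3′), in which 6 of the 7 members matched and Gabrd is the one without an entry. Capitals mark GC boxes (GGGCGG, either strand) and E-boxes (CANNTG).
Gabra2, chr5:71095850-71096099: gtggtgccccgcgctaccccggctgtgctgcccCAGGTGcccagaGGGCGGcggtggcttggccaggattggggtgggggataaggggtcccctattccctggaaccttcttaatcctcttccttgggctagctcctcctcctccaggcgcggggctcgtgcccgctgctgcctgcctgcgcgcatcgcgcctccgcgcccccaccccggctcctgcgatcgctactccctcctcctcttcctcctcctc
Gabra4, chr5:71658309-71658558: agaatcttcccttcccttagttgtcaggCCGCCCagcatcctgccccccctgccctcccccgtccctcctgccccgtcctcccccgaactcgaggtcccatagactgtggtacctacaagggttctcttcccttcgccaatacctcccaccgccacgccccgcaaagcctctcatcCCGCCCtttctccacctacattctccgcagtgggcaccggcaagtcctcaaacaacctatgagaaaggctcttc
Gabra5, chr7:57510060-57510309: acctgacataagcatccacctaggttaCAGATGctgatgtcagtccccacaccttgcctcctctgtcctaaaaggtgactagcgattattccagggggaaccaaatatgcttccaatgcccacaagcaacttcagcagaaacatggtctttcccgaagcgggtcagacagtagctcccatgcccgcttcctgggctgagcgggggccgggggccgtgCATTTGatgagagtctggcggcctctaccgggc
The Gabra2 window held 1 GC box and 1 E-box, the Gabra4 window 2 GC boxes and the Gabra5 window 2 E-boxes. A GC box is found in 32.9% and an E-box in 66.0% of the 27025 promoter windows of this length, so these matches are common ones. G and C made up 70.0% of the Gabra2 window, 61.2% of that of Gabra4 and 56.4% of that of Gabra5, against a median of 52.0% over all windows. The cAMP response element TGACGTCA, the TATA box TATAAA and the Egr site GCGGGGGCG, searched on both strands and present in 1.62%, 13.0% and 2.56% of windows, had no match in these 3.

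To find which cells carry each subunit, the UMIs of all cells of a class were added up in each library and scaled to CPM, which compares 1 gene between cells but not different genes with each other. Since the authors clustered the cells on genes of the same libraries, levels between classes and clusters are a description without a test. Gabrb1 was highest in astrocytes, with 263 ± 45.4 CPM (SD, n = 11), against 102 ± 13.5 CPM (SD, n = 12) in excitatory and 54.0 ± 16.4 CPM (SD, n = 12) in inhibitory neurons. Over the 11 P60 libraries with at least 10 astrocytes the lowest value was 192 CPM, above the highest excitatory value of 125 CPM, so these 2 ranges did not overlap. Of 797 astrocytes of the saline libraries, 60.2% held a Gabrb1 UMI at a median of 3564 UMIs per cell. With every cell thinned to 2000 UMIs, the share was 38.6% (95% binomial interval 35.2 to 42.1%), against 1.29% of 1856 endothelial cells, which counted 2.64% at 4529.5 UMIs per cell before thinning. Intervals on counts and shares cover counting error only.

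Gabrb2, a β subunit of synaptic receptors in many neurons, was highest in inhibitory neurons (379 ± 71.3 CPM, SD, n = 12), followed by excitatory neurons (205 ± 21.9 CPM, SD, n = 12) and oligodendrocyte precursors (108 ± 33.0 CPM, SD, n = 11), in which Gabrb1 stood at 58.3 ± 21.4 CPM (SD, n = 11). These are class means. Among the authors' inhibitory clusters Gabrb2 ranged from 569 CPM in Inhib_7 to 163 CPM in Inhib_2, and the excitatory cluster Exc_26 had 369 CPM. In the saline libraries 18.3% of 350 precursors held a Gabrb2 UMI after thinning, against 1.51% of endothelial cells. Endothelial cells are not a matched background for mRNA from neurons. At P60 the neuronal gene Slc17a7 was at 70.8 CPM in precursors, 66.4 CPM in astrocytes and 28.7 CPM in endothelial cells. The part of mRNA from neurons in the glial levels was not tested. Gabra3, which encodes another α subunit of benzodiazepine-sensitive receptors, was at 64.8 ± 3.80 CPM (SD, n = 12) in excitatory and 38.0 ± 12.3 CPM (SD, n = 12) in inhibitory neurons. The remaining members differed between the neuron classes by less than the spread over libraries: Gabra4 was at 105 ± 8.59 CPM and 91.8 ± 22.4 CPM, Gabra5 at 49.9 ± 5.86 CPM and 47.0 ± 26.2 CPM, Gabrd at 65.4 ± 9.40 CPM and 71.1 ± 23.4 CPM, and Gabra2 at 20.5 ± 3.25 CPM and 13.7 ± 7.44 CPM, each with n = 12. Gabra2 was also at 18.8 ± 6.10 CPM (SD, n = 11) in astrocytes and 15.7 ± 11.4 CPM (SD, n = 11) in precursors, levels within the spread of those in neurons, and Gabra3 at 32.0 ± 6.28 CPM (SD, n = 11) in precursors. In endothelial cells all 7 members had means of 1.78 to 10.2 CPM.

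Within excitatory neurons the members split by cluster. The deposited L2 clusters were used as labelled, 26 of them excitatory with at least 2 P60 libraries of 10 or more cells. Gabrd was highest in Exc_1 (173 ± 25.1 CPM, SD, n = 11), then Exc_4 (154 CPM), Exc_5 (150.0 CPM), Exc_3 (139 CPM), Exc_2 (125 CPM) and Exc_9 (112 CPM), and lowest in Exc_25 (23.8 ± 6.44 CPM, SD, n = 12). Of all excitatory clusters these 6 had the lowest Gabra5, from 9.98 CPM in Exc_1 to 20.2 CPM in Exc_9. All 6 carried Cux2, a transcription factor of upper cortical layers, at 83.5 to 224 CPM.

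Gabra5 was highest among excitatory clusters in Exc_26 (93.4 ± 22.0 CPM, SD, n = 8), Exc_19 (88.0 ± 20.5 CPM, SD, n = 12) and Exc_22 (83.1 ± 22.5 CPM, SD, n = 9). Gabrd there was at 38.8, 35.8 and 34.7 CPM, and Cux2 at 0.688, 2.01 and 0.431 CPM. Exc_19 held Foxp2 (151 CPM) and Syt6 (89.3 CPM), both known from deep-layer corticothalamic neurons, while Exc_22 and Exc_26 held Etv1, a layer 5 gene, at 189 and 197 CPM. Across the 26 excitatory clusters the levels of Gabra5 and Gabrd, as log2(mean CPM + 1), had a Pearson correlation of -0.85. The clusters come from the same 12 libraries and differ in depth, so the value is given as a description. Computed within each P60 library it lay between -0.80 and -0.64, and within each P21 library between -0.67 and -0.49. Cux2 alone did not order the clusters: Exc_6, with the highest Cux2 (238 CPM), had 56.3 CPM of Gabra5 and 41.2 CPM of Gabrd.

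**Figure D1:**
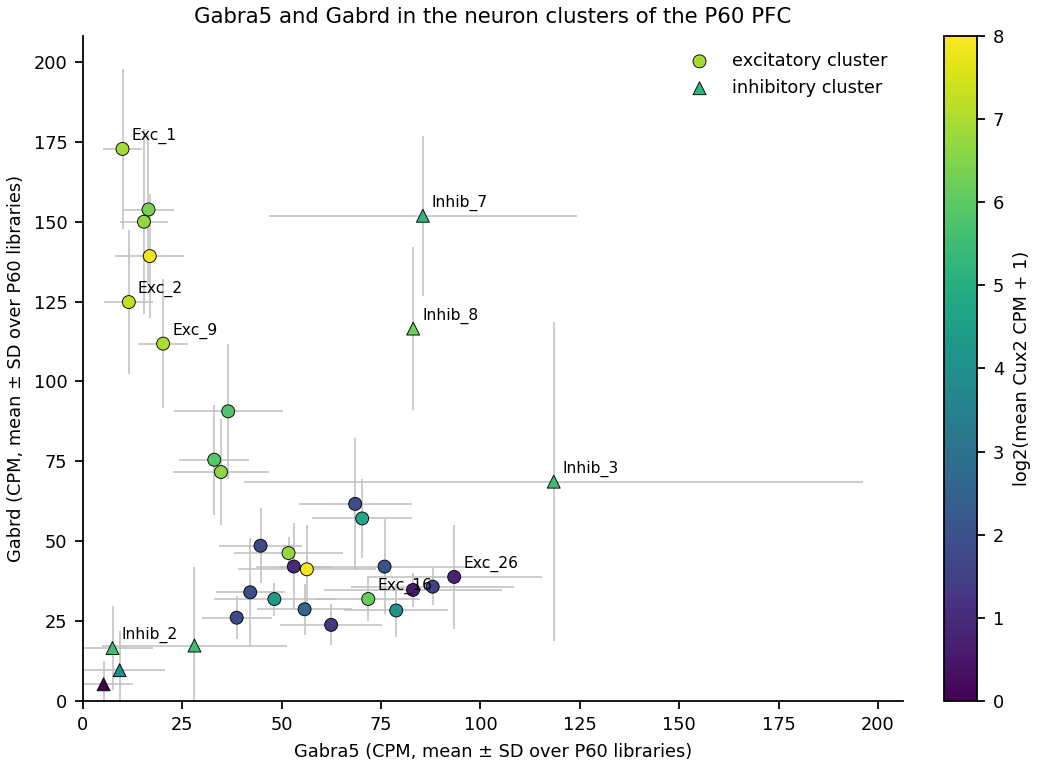
Level of Gabrd (vertical axis, CPM) against Gabra5 (horizontal axis, CPM) in each neuron cluster at P60, as means over libraries with SD as grey bars; circles are the 26 excitatory and triangles the 7 inhibitory clusters, and colour gives log2(mean Cux2 CPM + 1). The excitatory clusters run from high Gabrd and low Gabra5 (Exc_1, 173 and 9.98 CPM) to low Gabrd and high Gabra5 (Exc_26, 38.8 and 93.4 CPM), while Inhib_7 is high in both.

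Gabra2, whose α2 subunit is known from the axon initial segment of pyramidal cells, followed Gabrd. It was highest in Exc_2 (51.2 ± 13.2 CPM, SD, n = 12), Exc_4 (47.9 CPM) and Exc_5 (44.7 CPM) and lowest in the Foxp2 clusters Exc_20 (3.66 ± 3.57 CPM, SD, n = 8) and Exc_19 (4.77 CPM), the widest range of the 7 genes at 14.0-fold between the highest and the lowest excitatory mean. This fold is loosely set, since the lowest mean is about as large as its SD. The correlation of Gabra2 across the 26 clusters was 0.72 with Gabrd, 0.58 with Gabra4 and -0.68 with Gabra5. The ranges of Gabra5 and Gabrd were 9.36-fold and 7.26-fold. Gabra3, Gabrb1 and Gabra4 were the most even, with 1.77-fold, 2.14-fold and 2.28-fold. Gabra4, the usual forebrain partner of the δ subunit, correlated with Gabrd at 0.57 and was highest among excitatory clusters in Exc_17 (135 ± 15.1 CPM, SD, n = 9), where Gabrd was at 46.3 CPM.

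Gabrb1 was highest among neurons in Exc_21 (151 ± 43.5 CPM, SD, n = 12), a cluster with Tshz2 at 2099 CPM, and in Exc_20 (149.8 CPM). Among excitatory clusters Gabrb2 was lowest in Exc_7 (96.6 ± 19.1 CPM, SD, n = 9), Exc_14 (101 CPM) and Exc_21 (114 CPM), and highest in Exc_26 (369 ± 147 CPM, SD, n = 8) and Exc_18 (349.7 CPM). So Exc_21 had the highest Gabrb1 and the third lowest Gabrb2 of the excitatory clusters. Neighbours in these orders were seldom apart: of up to 32 pairs of neighbouring neuron clusters, the mean log2 difference within libraries reached its own SD for 0 (Gabra2, Gabra3, Gabrb1 and Gabrd) to 3 (Gabra5) pairs, so single ranks carry no weight.

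**Figure D2:**
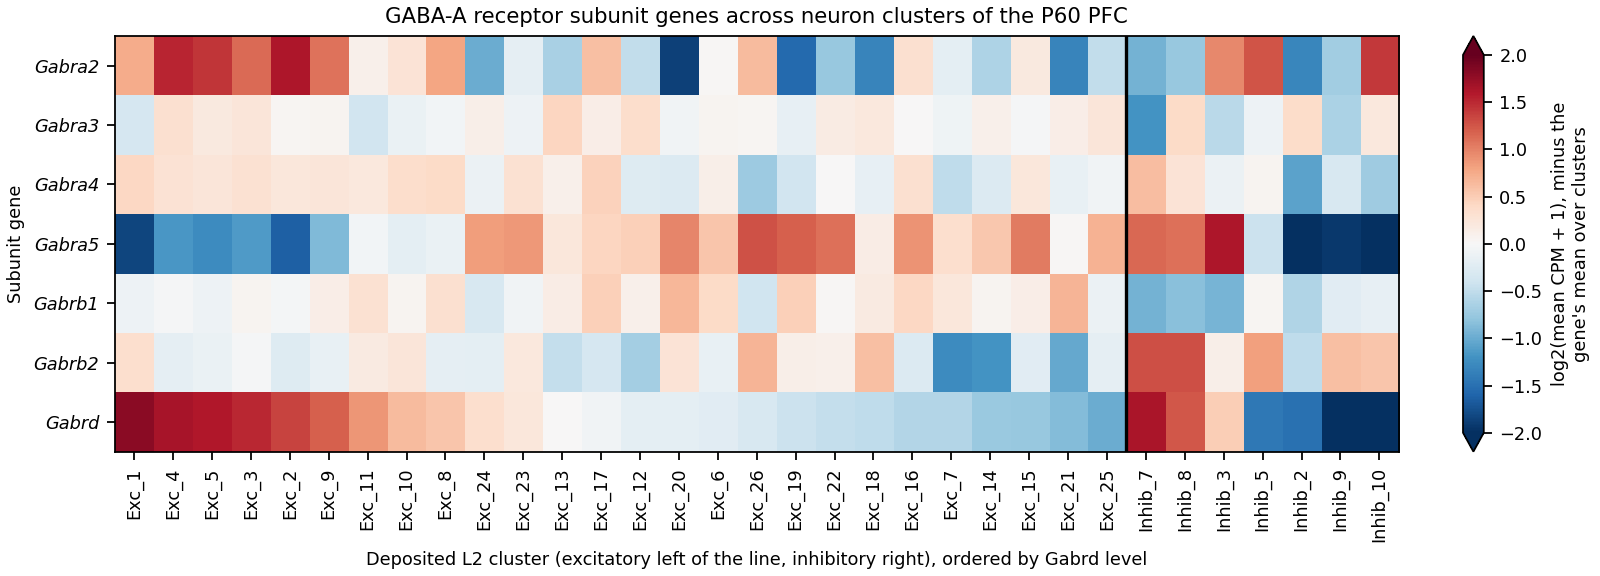
Levels of the 7 genes (rows) in the 33 neuron clusters (columns, ordered by Gabrd within excitatory and inhibitory clusters) at P60, as log2(mean CPM + 1) minus the mean of the gene over clusters. Red is above and blue below the mean of that gene; Gabra2 is red and Gabra5 blue at the left end, where Gabrd is highest, and Gabra3 and Gabrb1 change least across the excitatory clusters.

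Of the 7 inhibitory clusters that could be followed at P60, Inhib_7 had the highest means of 3 members: Gabrb2 at 569 ± 97.0 CPM (SD, n = 9), beside 567 CPM in Inhib_8, Gabra4 at 152 ± 20.6 CPM (SD, n = 9) and Gabrd at 152 ± 25.1 CPM (SD, n = 9). Its Gabra5 was also high, with 85.5 ± 38.8 CPM (SD, n = 9), and its Gabra3 (26.1 CPM) and Gabrb1 (48.1 CPM) were the lowest of all 33 clusters. Inhib_7 held none of the subclass markers at the level of the clusters they define: Sst was at 532 CPM against 23490.2 CPM in Inhib_2, Vip at 8.53 CPM against 17802 CPM in Inhib_9, Pvalb at 229.9 CPM against 1146 CPM in the 1 library of Inhib_6. Reln, at 127.9 CPM, was also below Inhib_10 (210 CPM, 2 libraries) and Inhib_2 (354 CPM) but above Inhib_9 (29.2 CPM). Inhib_7 is therefore called by its number. Inhib_6 could not be followed by library, but its pooled Gabrd was at 266 CPM (95% exact Poisson interval 189 to 363) in 22 cells of the saline libraries, above the 155 CPM (137 to 174) of Inhib_7, and at 159 CPM in 21 cells of the cocaine libraries. The Sst cluster Inhib_2 had little Gabrd (16.5 ± 13.1 CPM, SD, n = 6) and Gabra5 (7.46 ± 10.2 CPM, SD, n = 6), as did the Vip cluster Inhib_9, at 9.62 ± 12.2 CPM (SD, n = 6) and 9.25 ± 11.4 CPM (SD, n = 6). Gabra3 was higher in Inhib_2 (79.1 ± 23.4 CPM, SD, n = 6). The highest Gabra5 mean of any neuron cluster was that of Inhib_3 (118 ± 77.9 CPM, SD, n = 4), with a spread over its 4 libraries that reaches those of the others.

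By a fixed rule, the 2 genes whose levels were most like those of each member over the 33 neuron clusters were looked up, among genes of at least 20 CPM in the member's highest cluster. For Gabrd these were Esf1 (r = 0.86) and Il1rapl1 (r = 0.83), for Gabra2 Pvrl3 (r = 0.78), for Gabra5 A830018L16Rik (r = 0.79) and Sepx1 (r = 0.75), for Gabra4 Cacna2d1 (r = 0.80) and Vgll4 (r = 0.78), for Gabra3 Plxna1 (r = 0.73) and Tmem19 (r = 0.70) and for Gabrb1 Psmd14 (r = 0.83) and Psmd7 (r = 0.79). For Gabrb2, Mapk9 is given (r = 0.78). These are among the highest of 5853 to 6363 correlations per member and share libraries and depth. Il1rapl1 encodes a synaptic adhesion protein, Cacna2d1 a calcium channel subunit, and Psmd14 and Psmd7 are proteasome subunits.

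To see how the members differ between adolescence and adulthood, the 6 saline P60 libraries were compared with the 3 P21 libraries by edgeR's quasi-likelihood test on the summed UMIs, with Benjamini-Hochberg adjustment over all genes tested; to be called, a gene had to pass both an adjusted p of 0.05 and a fold of 1.5. In excitatory neurons 18.0% of 13089 genes were called, and 38.7% passed the adjusted p without regard to fold. None of the 7 members was called, by edgeR or by DESeq2, while 5 passed the adjusted p alone (5 also had an unadjusted p below 0.05). Gabrb2 was at 278, 309 and 316 CPM in the P21 libraries, and at 168, 213 and 236 CPM as lowest, median and highest of the saline P60 libraries. All 3 P21 libraries lay above all 6 P60 libraries, and Gabrb2 fell with a log2 fold change of -0.49 ± 0.0895 (SE, adjusted p = 0.00108). Gabra5 was at 60.3, 77.1 and 80.5 CPM at P21 and 45.9, 48.7 and 55.7 CPM at P60, again without overlap, and fell with a log2 fold change of -0.49 ± 0.101 (SE, adjusted p = 0.00225). How many of all genes set the libraries of the 2 ages apart in this way was not counted. Genes known to respond to dissociation also moved with age: their summed level in excitatory neurons was 787 to 803 CPM at P21 and 351 to 554 CPM in the saline libraries, with 2 of 9 called up, such as Hspa1a (1.97), and 5 down, such as Fos (-1.03). For Hspa1a the paper also reported a higher level at P60 by in situ hybridization, in neurons marked by Pou3f1 or Foxp2. The part of these 9 genes in the members' values was not tested.

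In the opposite direction, Gabra3 was at 61.5, 47.9 and 46.3 CPM at P21 and at 63.4, 67.4 and 72.4 CPM (lowest, median, highest) in the saline P60 libraries. The groups did not overlap, again without a count over all genes, and Gabra3 rose by 0.41 ± 0.0992 (SE, adjusted p = 0.00593) on the log2 scale. Gabrd was at 61.9, 48.1 and 47.1 CPM at P21 and 60.3, 67.6 and 81.1 CPM at P60, and Gabra2 at 18.7, 12.5 and 11.3 CPM and 17.1, 20.2 and 24.3 CPM. For both, P21 library 1 lay within the P60 range and the other two below it; Gabrd rose by 0.44 ± 0.127 (SE, adjusted p = 0.0160) and Gabra2 by 0.52 ± 0.174 (SE, adjusted p = 0.0300). Gabra4 (0.01 ± 0.0990 SE, adjusted p = 0.958) and Gabrb1 (0.07 ± 0.125 SE, adjusted p = 0.690) did not pass the test. P21 library 1 was the P21 library nearest to P60 for Gabrb2, Gabra5, Gabra3, Gabrd and Gabra2, and without it Gabra2 (0.79, adjusted p = 0.00152) and Gabra5 (-0.60, adjusted p = 0.000215) were called in edgeR. With P21 libraries 2 and 3 summed, a setting added after the data were seen, Gabrb2 (-0.47, adjusted p = 0.00737), Gabra5 (-0.44, adjusted p = 0.0151) and Gabra3 (0.35, adjusted p = 0.0375) still passed the adjusted p, and Gabrd (0.37, adjusted p = 0.0726) and Gabra2 (0.43, adjusted p = 0.108) did not.

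**Figure D3:**
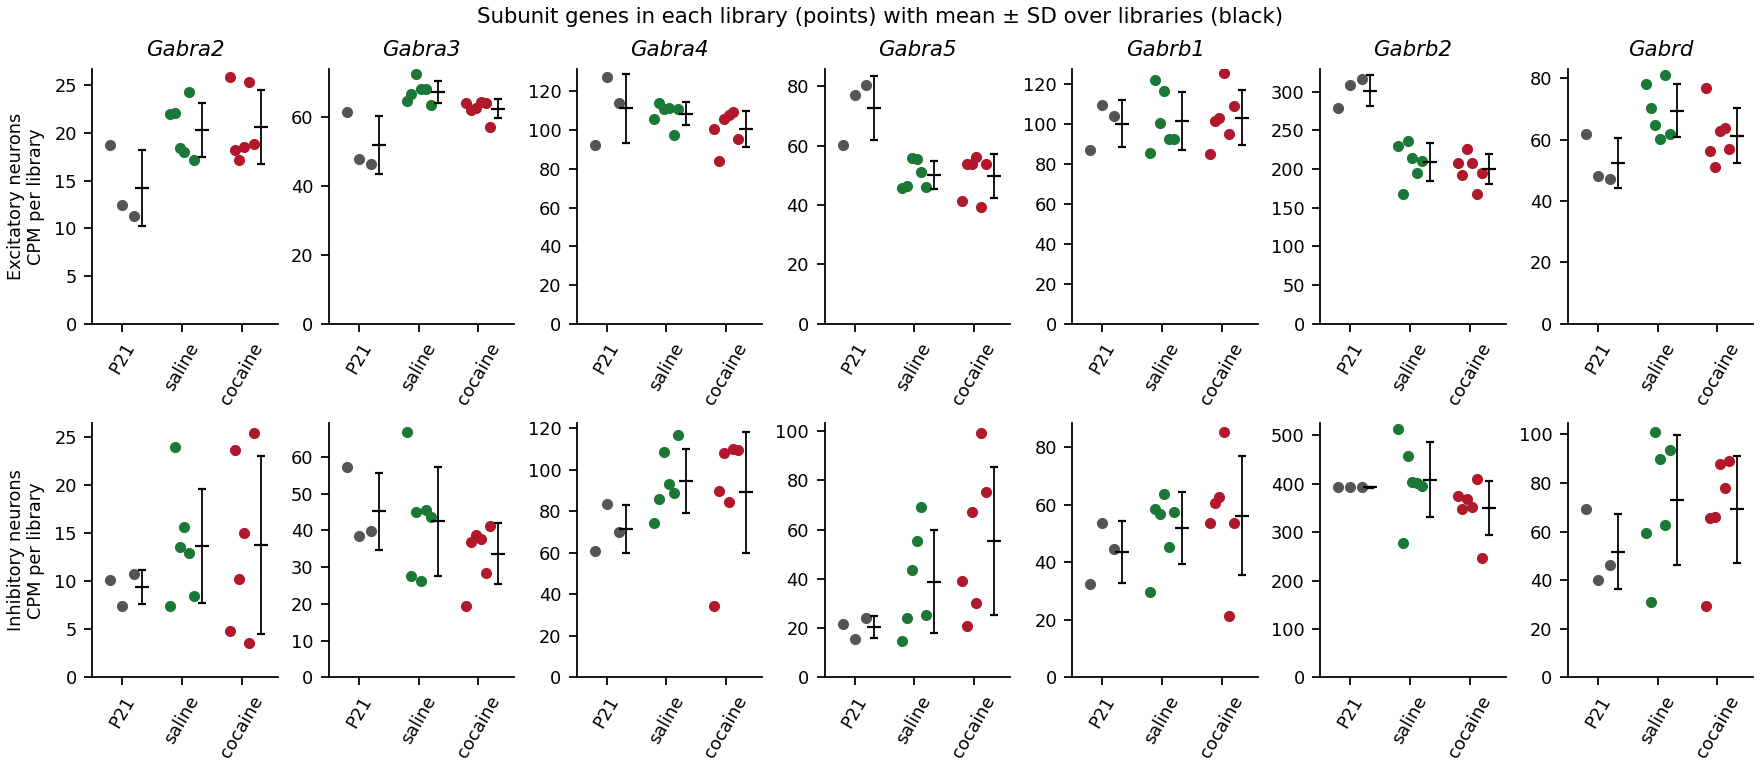
CPM of each gene (columns) in excitatory (top) and inhibitory neurons (bottom) of every library, with P21 in grey, P60 saline in green and P60 cocaine in red; black marks are means with SD. In excitatory neurons the P21 points of Gabrb2 (278 to 316 CPM) and Gabra5 lie above all saline points and those of Gabra3 below them, while the saline and cocaine points overlap for every gene.

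A class is a mixture of clusters, so the comparison was repeated in each cluster with at least 2 libraries of 10 or more cells at both ages, 26 of them excitatory and 3 inhibitory. Of 172 tests of members, 11 (6.40%) were called, against 10.4% of the 178178 tests of all genes, and all 11 were in excitatory clusters. Gabrb2 had a negative log2 fold change in 26 of 26 excitatory clusters with a median of -0.41. It passed the adjusted p in 11 of them and was called in Exc_19 (-0.67 ± 0.129 SE, adjusted p = 0.000571) and Exc_20 (-0.64 ± 0.180 SE, adjusted p = 0.0290). Gabra3 was positive in 25 of the 25 clusters tested, with a median of 0.51, and was called in Exc_4 (0.94 ± 0.229 SE, adjusted p = 0.00847), Exc_17 (0.89 ± 0.310 SE, adjusted p = 0.0478), Exc_8 (0.68) and Exc_16 (0.62). The clusters share libraries, so these counts are not independent.

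Gabrd was called higher at P60 in Exc_20 (1.38 ± 0.354 SE, adjusted p = 0.0176), Exc_21 (1.10 ± 0.334 SE, adjusted p = 0.0219) and Exc_22 (1.00 ± 0.284 SE, adjusted p = 0.0103), all of them clusters in which it stayed below its mean over excitatory neurons. In Exc_20 it went from 17.5 ± 3.79 CPM (SD, n = 3) to 43.2 ± 20.8 CPM (SD, n = 4), and in Exc_21 from 12.0 ± 6.29 CPM (SD, n = 3) to 27.8 ± 4.48 CPM (SD, n = 6). In the cluster where it is highest, Exc_1, the log2 fold change was 0.46 ± 0.223 (SE, adjusted p = 0.164). Whether the change differs between clusters was not tested. Over the 26 clusters Gabrd was positive in 22, with a median of 0.41. Gabra5 was negative in 20 of 22 and called in Exc_18 (-0.79 ± 0.244 SE, adjusted p = 0.0480), Gabra2 was positive in 10 of 11 without a call, and Gabra4, with 10 positive and 16 negative, was called higher in Exc_19 (0.62 ± 0.162 SE, adjusted p = 0.00812). Gabrb1 was called in none. Averaged over the 14 excitatory clusters with 10 cells in every library, so that each weighed the same, Gabrb2 (-0.42, adjusted p = 0.0110), Gabra5 (-0.49, 0.0248) and Gabra3 (0.37, 0.0251) passed the adjusted p of limma, and Gabrd (0.27, 0.0702) and Gabra2 (0.23, 0.346) did not.

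**Figure D4:**
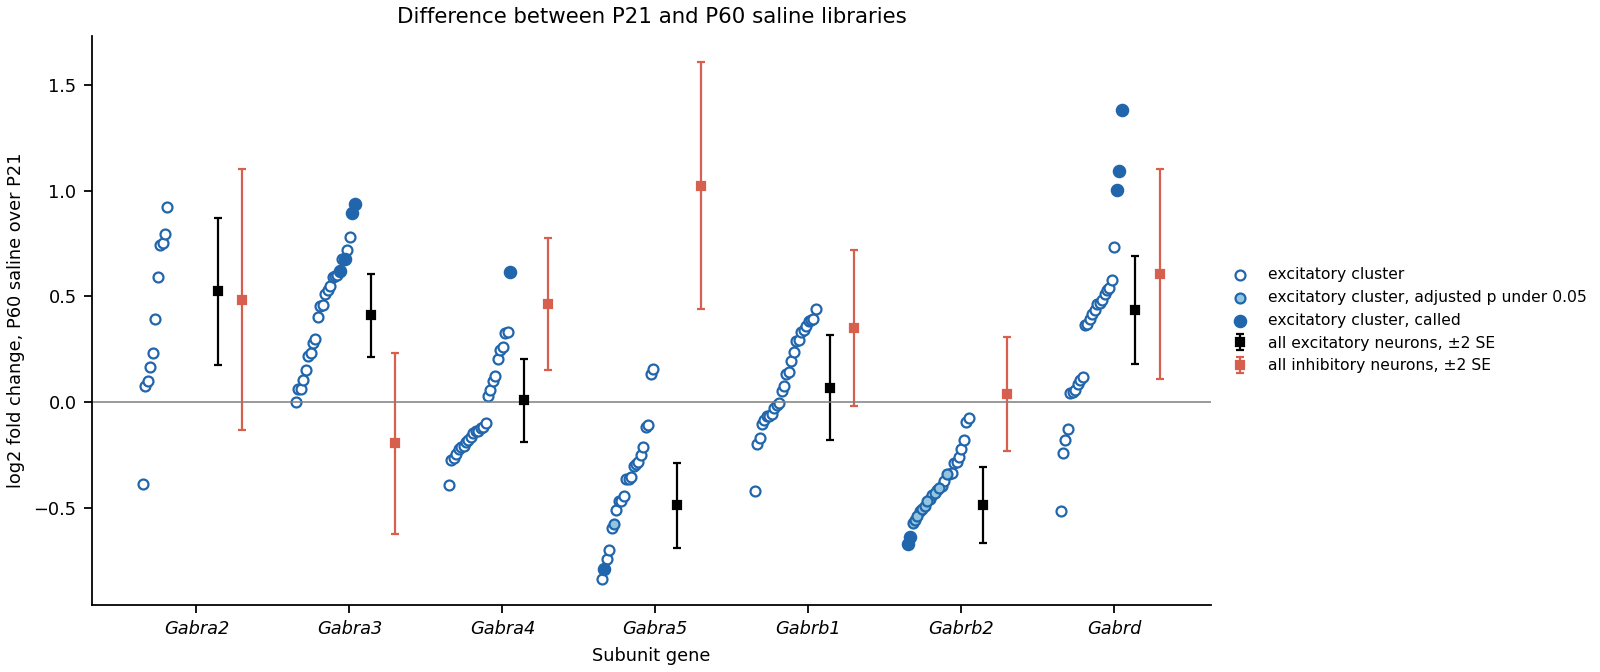
log2 fold change of P60 saline over P21 (vertical axis) for each gene in the excitatory clusters (circles, filled where called and light where the adjusted p alone passed), in all excitatory neurons (black squares) and in all inhibitory neurons (red squares), with bars of 2 SE. All 26 circles of Gabrb2 lie below 0, and Gabra5 lies below 0 in excitatory and above 0 in inhibitory neurons.

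In inhibitory neurons Gabra5 went the other way. It was at 21.9, 15.4 and 24.1 CPM in the P21 libraries and at 14.8, 34.6 and 69.2 CPM (lowest, median, highest) in the saline P60 libraries, so that the groups overlapped while 5 of the 6 P60 libraries had values at or above the median P21 library. The log2 fold change was 1.02 ± 0.293 (SE, adjusted p = 0.0230), the 1 call among the 7 members, with 14.1% of 8750 genes called and 19.4% passing the adjusted p alone. Gabra4 was at 60.7, 83.5 and 70.1 CPM at P21 and 74.2, 90.9 and 117 CPM at P60 and rose by less than 1.5-fold (0.46 ± 0.156 SE, adjusted p = 0.0420). Gabrd (0.61 ± 0.249 SE, adjusted p = 0.102), Gabra2 (0.49 ± 0.310 SE, adjusted p = 0.284), Gabrb1 (0.35 ± 0.184 SE, adjusted p = 0.188), Gabra3 (-0.20 ± 0.215 SE, adjusted p = 0.561) and Gabrb2 (0.04 ± 0.135 SE, adjusted p = 0.888) did not pass the test. The summed dissociation genes were at 735 to 911 CPM at P21 and 163 to 909.5 CPM at P60, and the 6 glia and vessel markers at 15.9 to 29.6 and 6.87 to 103 CPM; their part was not tested. The inhibitory sums are small, with 19 to 201 cells in a saline library. Without saline 15 days library 1 or 2 or P21 library 2 the Gabra5 call was lost (log2 fold change 0.86 to 1.02, adjusted p 0.0517 to 0.0923). With P21 libraries 2 and 3 summed, neither Gabra5 (1.00, adjusted p = 0.0547) nor Gabra4 (0.50, adjusted p = 0.0793) passed in edgeR.

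The makeup of the inhibitory class differed between the ages, in clusters with high and with low Gabra5. Inhib_7 was 8.09% of the 939 inhibitory cells at P21 (4.46 to 14.0% in a library) and 36.5% of the 550 in the saline P60 libraries (15.8 to 40.7%). The Sst cluster Inhib_2, with little Gabra5, was 35.6% and 8.00%. Inhib_3, with the highest Gabra5 mean at P60, was 0.958% and 7.09% (0 to 19.3% in a saline library). Inhib_6, the cluster with Pvalb, was 16.5% and 4.00%. The cluster names of P21 cells rest on their likeness to P60 clusters, as the authors assigned them, and how far dissociation spared each kind of cell is not known. Cells called Inhib_7 differed in markers between the ages: Sst was at 28.0 CPM and Pvalb at 0 CPM at P21, against the 532 and 229.9 CPM of P60. Reln was at 250.9 CPM at P21 and 127.9 CPM at P60, and Gad2 at 2917 and 2428 CPM. Shares and levels of Inhib_7 are those of the deposited name at each age, which is not shown to hold 1 kind of cell. Within Inhib_7 the pooled Gabra5 was at 60.1 CPM (95% exact Poisson interval 40.2 to 86.3) at P21 and at 72.3 CPM (95% exact Poisson interval 60.4 to 85.8) in the saline libraries, and the test gave 0.26 ± 0.366 (SE, adjusted p = 0.786). Taking all libraries together, Gabra5 was at 20.7 CPM at P21 and 42.9 CPM at P60. Here and for the members below, shares of UMIs, not of cells, were then swapped between the ages. With the P21 level of each cluster and the P60 shares Gabra5 came to 41.2 CPM. With the P60 levels and the P21 shares it came to 18.7 CPM. Some of these cluster levels rest on few counts, such as 2 Gabra5 UMIs in the 9 Inhib_3 cells of P21.

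In a setting added after the data were seen, without Inhib_7, the inhibitory log2 fold change of Gabra5 was 0.34 (adjusted p = 0.514) and no member was called in edgeR. Gabrd was at 53.6 CPM at P21 and 87.1 CPM at P60, and came to 94.3 CPM with P21 levels at P60 shares and to 70.1 CPM with P60 levels at P21 shares, the latter above its P21 value, unlike for Gabra5. Its log2 fold change without Inhib_7 was -0.15 (adjusted p = 0.756). Gabra4, at 70.2 CPM at P21 and 102 CPM at P60, came to 86.4 CPM with P21 levels at P60 shares and to 54.6 CPM with P60 levels at P21 shares, below its P21 value. In Inhib_2 the pooled Gabra4 was at 66.8 CPM (95% exact Poisson interval 56.8 to 78.1) at P21 and 30.5 CPM (15.7 to 53.2) in the saline libraries, and the test gave -1.18 ± 0.469 (SE, adjusted p = 0.285). Gabrb2 stood at 393 CPM at P21 and 416 CPM at P60 over all inhibitory cells. It came to 571 CPM with P21 levels at P60 shares and to 235 CPM with P60 levels at P21 shares. Within Inhib_7 it was at 787 CPM (95% exact Poisson interval 709.8 to 870.2) at P21 and 572 CPM (95% exact Poisson interval 537 to 608) in the saline libraries, and within Inhib_2 at 247 CPM (95% exact Poisson interval 228 to 268) and 139.7 CPM (95% exact Poisson interval 105 to 182). The tests within these clusters gave -0.53 ± 0.152 (SE, adjusted p = 0.0579) and -0.59 ± 0.293 (SE, adjusted p = 0.397), and neither passed. The parts of level and share in the class values were not tested.

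The difference between the classes was tested in 1 fit of both sums with the library as a block. The change with age differed for Gabra5 by 1.45 ± 0.239 (SE, adjusted p = 0.000264), inhibitory minus excitatory, and for Gabra3 by -0.62 ± 0.170 (SE, adjusted p = 0.0115), 2 calls among the 7 members, with 5.94% of 12124 genes called. Gabrb2 (0.49 ± 0.0892 SE, adjusted p = 9.79e-05) and Gabra4 (0.45 ± 0.129 SE, adjusted p = 0.0154) passed the adjusted p but not the fold. Without Inhib_7 the difference was 0.75 for Gabra5 (adjusted p = 0.0702) and -0.51 for Gabra3 (0.0823), and neither was called. The Gabra3 call was also lost without saline maintenance library 2 (-0.57), saline 15 days library 2 (-0.48) or P21 library 1 (-0.58). In inhibitory cells Gabra3 was at 46.3 CPM at P21 and 40.1 CPM at P60, but came to 54.8 CPM with P60 levels at P21 shares and to 32.2 CPM with P21 levels at P60 shares, so its direction turned with the shares held at those of P21. In Inhib_2 it was at 60.9 CPM (51.3 to 71.7) and 83.8 CPM (57.7 to 118), with a test value of 0.47 ± 0.351 (SE, adjusted p = 0.604).

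Outside neurons, 7.95% of 29437 tests over 5 classes were called between the ages, and no member was. Gabrb1 in astrocytes was at 132, 177 and 248 CPM at P21 and at 192, 231 and 343 CPM (lowest, median, highest of 5 libraries) at P60, with overlap (0.53 ± 0.277 SE, adjusted p = 0.415). Gabra4 (0.64 ± 0.458 SE, adjusted p = 0.603) and Gabrb2 (0.53 ± 0.884 SE, adjusted p = 0.868) in astrocytes did not pass either. The other members were too low to be tested there, and precursors at P21 had 10 cells in only 1 library.

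The genes that anchor and move these receptors and those that supply GABA were read in the same fits. Over all genes 18.0% were called in excitatory and 14.1% in inhibitory neurons, and 38.7% and 19.4% passed the adjusted p alone, and the counts of these lists are to be read against the matching share. Of 17 anchoring and trafficking genes tested in excitatory neurons 1 was called, Trak2, a kinesin adaptor, which fell (-0.70 ± 0.0840 SE, adjusted p = 7.09e-05). On the adjusted p alone 4 rose and 4 fell, against the 38.7% of all genes, among them Slitrk3 (0.51 ± 0.104 SE, adjusted p = 0.00216), an adhesion protein of inhibitory synapses, upward, and Lhfpl4 (-0.50 ± 0.109 SE, adjusted p = 0.00313), which holds synaptic receptors at neuroligin, downward. Their median log2 fold change was -0.02, against -0.01 over all genes. Of 7 genes of GABA supply and the chloride gradient, Slc6a11, a GABA transporter, and Slc12a2, the chloride importer known for its fall as neurons mature, fell, with log2 fold changes of -1.28 and -0.60 (adjusted p = 2.25e-05 and 0.00488). The median of these 7 genes was -0.75, with 4 at an unadjusted p below 0.05; Gad2 (-1.19 ± 0.470 SE, adjusted p = 0.0641) and Gad1 (-0.75 ± 0.487 SE, adjusted p = 0.245), which mark inhibitory cells, did not pass the test.

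In inhibitory neurons Trak2 fell (-0.93 ± 0.317 SE, adjusted p = 0.0496) as the 1 call of 17, and Gad1, the main GABA-synthesizing enzyme, rose (0.80 ± 0.144 SE, adjusted p = 0.000926) as the 1 call of 8. Of the 12 other subunit genes, 6 were tested in excitatory neurons with 1 called, downward, and 4 in inhibitory neurons with none called (1 had an unadjusted p below 0.05). The sum of 6 glia and vessel markers in excitatory neurons overlapped between the ages (7.98 to 23.9 and 5.07 to 18.9 CPM). Markers of inhibitory cells in excitatory neurons were low but higher at P21: Gad2 was at 1.71 to 2.48 CPM in the P21 and 0 to 1.60 CPM in the saline libraries, without overlap, and Sst had a mean of 19.3 CPM at P21 and 6.03 CPM over all P60 libraries. Their part in the members' values was not tested.

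Cocaine and saline libraries were compared at each time point in a fit of all 12 P60 libraries. In edgeR none of the 7 members was called in excitatory or inhibitory neurons at any time point, and 1 of the 42 tests had an unadjusted p below 0.05. DESeq2 called none either. Over all genes, 0% of 13169 in excitatory and 0% of 8592 in inhibitory neurons were called at maintenance (872 and 350 with an unadjusted p below 0.05, 2 and 0 called by DESeq2), 0% and 0% at 48 h (648 and 417 unadjusted, 3 and 3 by DESeq2), and 0.706% and 0.815% at 15 days.

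The smallest unadjusted p in excitatory neurons was that of Gabra4 at maintenance. It was at 101 and 84.2 CPM in the cocaine libraries and 106 and 114 CPM in the saline libraries, without overlap, at a log2 difference of -0.28 ± 0.118 (SE, adjusted p = 0.734). With 2 libraries against 2, such a separation carries little weight, and its share over all genes was not counted. Gabrd at 48 h was at 63.7 and 56.9 CPM under cocaine and 81.1 and 61.9 CPM under saline, which overlap (-0.26 ± 0.158 SE, adjusted p = 0.983). Over the 21 excitatory tests, the intervals of 2 SE around the log2 difference reached from -0.58 (Gabrd at 48 h) to 0.47 (Gabrb1 at 48 h), so a difference of 2-fold lay outside every one of them.

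The inhibitory sums bound the members less well. Gabra5 at 48 h was at 99.1 and 75.2 CPM under cocaine and 69.2 and 25.5 CPM under saline. Both cocaine libraries were higher, and the log2 difference of 0.99 ± 0.462 (SE, adjusted p = 1.00) did not pass the test. With 2 libraries against 2 this separation carries little weight, and its share over all genes was not counted. Over all time points Inhib_3, with the highest Gabra5 mean, was 7.09% of inhibitory cells under saline and 13.3% under cocaine. In a cocaine library its share was 0 to 37.6%. The part of these shares in the Gabra5 values was not tested. Gabra2 at 48 h was at 3.54 and 25.4 CPM under cocaine and 13.0 and 8.49 CPM under saline, with the saline libraries between the cocaine ones (0.97 ± 0.581 SE, adjusted p = 1.00). At 15 days, where the inhibitory sums held 135 to 211 cells, the intervals of 2 SE reached from -1.11 (Gabra2) to 0.81 (Gabra5). At maintenance, with 19 to 48 cells, they reached from -1.75 (Gabra2) to 2.34 (Gabra5), and differences within these intervals are not excluded.

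**Figure D5:**
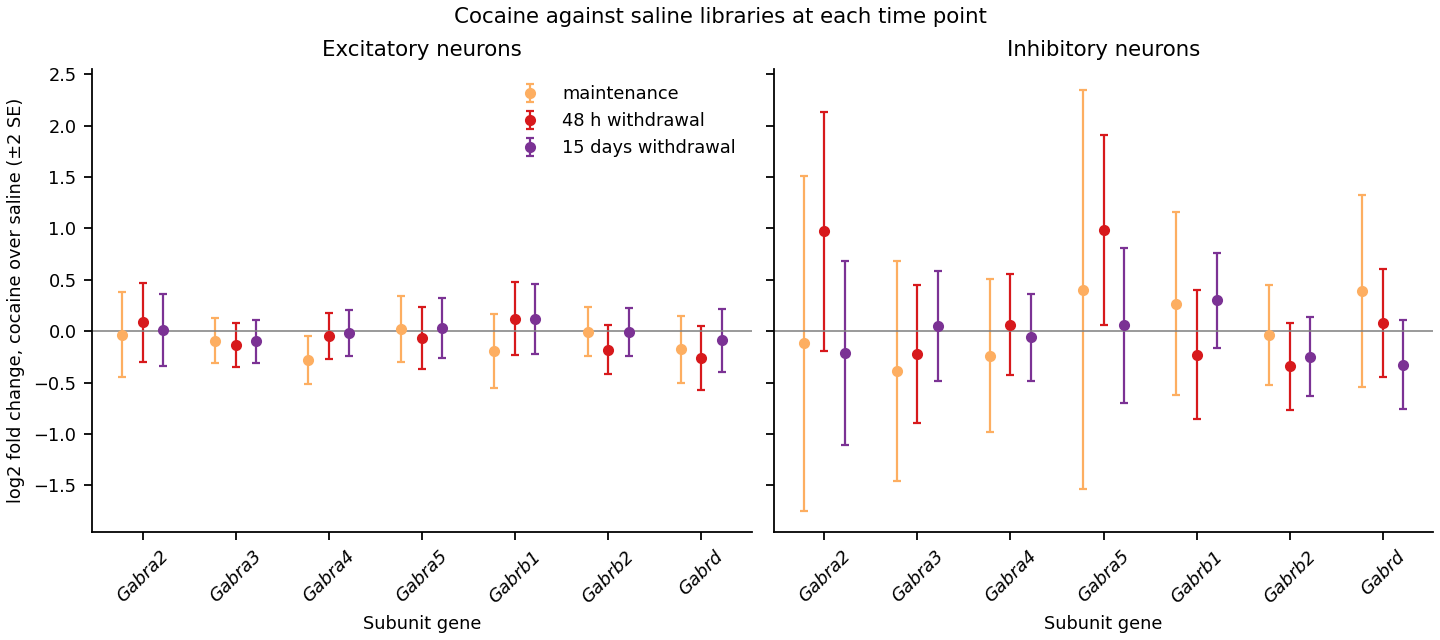
log2 fold change of cocaine over saline for each gene in excitatory (left) and inhibitory neurons (right) at maintenance, 48 h and 15 days of withdrawal, with bars of 2 SE from the edgeR fit. Every point in excitatory neurons lies between -0.28 and 0.12, and the bars are wider in inhibitory neurons, most of all at maintenance.

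By cluster, 409 tests of members in 64 fits gave 0 calls in edgeR and 14 unadjusted p-values below 0.05, with 0.530% of 452034 tests of all genes called. The smallest of the 14 was Gabrb2 in Exc_14 at 48 h (-0.66 ± 0.203 SE, adjusted p = 0.599), and the largest change among them was that of Gabra3 in Inhib_7 at 15 days (-1.36 ± 0.467 SE, adjusted p = 0.267). Differences of the cocaine effect between time points were tested in 6 contrasts, in which 0.00766% of 65283 tests were called and no member was. None of the 17 anchoring and trafficking genes and none of the GABA supply genes was called at any time point in either class by edgeR, where 0 to 2 of a list had an unadjusted p below 0.05.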

How the data were processed

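The matrices hold raw UMI counts that the authors deposited: Cell Ranger aligned the reads to mm9 (Ensembl release 67) and counted molecules per gene and cell, and Seurat 2.1.0 was used for the deposited filtering, cell types and L2 clusters. A cell was given a class where its deposited cell type and cluster named the same one, which left out 492 of 35360 cells (459 at P21, 33 at P60). After removal of 13 mitochondrial and 143 ribosomal protein genes, counts were summed per library and class or cluster with at least 10 cells, filtered by filterByExpr, scaled by TMM and tested with edgeR 4.0.16 (robust quasi-likelihood, Benjamini-Hochberg adjustment over all genes tested, R 4.3.3). DESeq2 1.42.0 and limma 3.58.1 gave alternatives. Log2 fold changes are P60 minus P21 and cocaine minus saline. Levels are means of CPM over libraries. No doublet caller was run here; doublets were left as the authors' filtering leaves them. The tests were checked on simulated counts, of which the inhibitory cocaine comparisons at maintenance and 48 h recovered the smallest share of changed genes. Members, gene lists and most alternatives were chosen with earlier results of these data known, and the settings without cluster Inhib_7, with classes by cluster alone and with P21 libraries 2 and 3 summed were added after the data were seen. Named were all members and, for each, the 2 genes with the most similar levels over neuron clusters; 2 of these are not reported here.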

Additional observations from a re-analysis of the deposited data

Results flagged for a closer look

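Gabra5 and Gabra3 changed with age differently in the neuron classes, by an edgeR test of the difference itself: the log2 fold change in inhibitory minus that in excitatory neurons was 1.45 for Gabra5 (adjusted p = 0.000264) and -0.62 for Gabra3 (adjusted p = 0.0115). Without cluster Inhib_7, whose share of inhibitory cells differed between the ages, the values were 0.75 and -0.51 and neither passed the test.

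In 28 groups of 6 libraries the lowest or highest library was set against the others by Dixon's criterion, which chance meets in about 5% of groups, and 2 stood apart. Gabra3 in excitatory neurons was at 57.1 CPM in cocaine 48 h library 2, below the next cocaine library at 61.9 CPM, with the highest at 64.5 CPM. Gabra4 in inhibitory neurons was at 34.1 CPM in cocaine maintenance library 1, below the next at 84.3 CPM, with the highest at 109.7 CPM; that library held 34 inhibitory cells. The part of cell number in the second value was not tested.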

How the results depend on the processing

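Of the 7 members, 0 were called between the ages in excitatory neurons. The number was 5 with no fold cutoff and 1 with cells thinned to 2000 UMIs (Gabrd, 0.59), and 0 to 2 when 1 library was left out, 2 being reached without P21 library 1. With P21 libraries 2 and 3 summed, 3 of the 5 members that passed the adjusted p still did. In inhibitory neurons 1 was called. It was 2 with no fold cutoff, with thinned cells, with the withdrawal saline libraries only and with at least 30 cells, and 0 with Bonferroni adjustment, with P21 libraries 2 and 3 summed and without cluster Inhib_7. Leaving out 1 library gave 0 to 2, with 0 without saline 15 days library 1 or 2 or P21 library 2 and 2 without saline maintenance library 2 or P21 library 1, where Gabrd joined Gabra5. For the difference between the classes 2 were called, 0 without Inhib_7, and 1 to 2 when 1 library was left out, Gabra3 being lost without saline maintenance library 2, saline 15 days library 2 or P21 library 1. The setting with P21 libraries 2 and 3 summed was not run for this difference. None of the member calls in the whole classes or in the difference between them changed sign under the settings run, and the calls within single clusters were not rerun under other settings. Cocaine comparisons gave 0 calls of members in each of 869 values under other settings, 55 of which had another sign than the main value. The correlation of Gabra5 with Gabrd was -0.85 in all P60 libraries, in the saline libraries and with at least 30 cells.

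Over all genes, the 2362 calls between the ages in excitatory neurons were 5070 with no fold cutoff, 338 with Bonferroni adjustment and 1570 in limma over clusters. The 1238 in inhibitory neurons were 110 with Bonferroni adjustment, 494 with thinned cells and 787 without P21 library 3, and the 720 of the difference 275 with thinned cells and 475 without P21 library 3. At 15 days the 93 excitatory calls were 163 in DESeq2, 381 with no filter and 0 with Bonferroni adjustment, and 0 without cocaine library 1 or saline library 1, 16 without cocaine library 2 and 387 without saline library 2. The 70 inhibitory calls were 7 in DESeq2, 147 with no filter, 13 with Bonferroni adjustment, 11 with thinned cells and 4 to 122 when 1 library was left out. The 0 calls at maintenance and 48 h reached at most 59 with no filter and 45 without cocaine 48 h library 1. The cause of these shifts was not tested. The cocaine tests rest on 2 libraries per treatment and time point, and the smallest held 19 inhibitory cells. No paired analysis was possible because replicate numbers follow the order of the accessions and pair no libraries across groups.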
